A study of Homo sapiens with 6 samples.

Results

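Cholesterol and fatty acids are both built in the cytosol and endoplasmic reticulum from acetyl-CoA, and the genes of both pathways share a control system. The membrane-bound factors SREBP1 (gene SREBF1) and SREBP2 (SREBF2) are escorted by SCAP to the Golgi, where proteases release the part that enters the nucleus and binds the start regions of synthesis genes. INSIG1 and INSIG2 hold the SCAP complex in the endoplasmic reticulum when sterols are plentiful. SCAP is itself a glycoprotein, and in work on cancer cells its N-glycans have been linked to its stability, and GFPT2 catalyses the first step of the hexosamine pathway that supplies the sugar for N-glycans.

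The genes described here are 38 genes of sterol and fatty acid synthesis, taken by symbol from the 60960 features of the deposited table, and each symbol matched 1 Ensembl gene. They were set out in 5 roles: the mevalonate steps (6 genes), the late sterol steps from farnesyl diphosphate to cholesterol (11), SREBP control (6), fatty acid synthesis and activation (9), and elongation and desaturation (6). Expression was measured by bulk RNA sequencing of NCI-H1975, an established human non-small cell lung cancer line. Libraries carrying the label siGFPT2 (a small interfering RNA against GFPT2, n = 3) were set against libraries carrying the label siNC (a control small interfering RNA, n = 3). The labels name no separate cultures for the 3 libraries of a group, so the tests speak only of the spread among these libraries, which may be technical.

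Levels are FPKM as deposited, that is, fragment counts scaled to gene length and to the size of the library. The depth read from the steps of these values lay between 22198121 and 27234880 fragments in the siGFPT2 libraries and between 21899321 and 24493042 in the siNC libraries. All 7 epithelial markers examined exceeded 43 FPKM in every library, and the lung lineage factor NKX2-1 lay between 27.7 and 31.7 FPKM. Endothelial, adipocyte and hepatocyte markers stayed under 0.3 FPKM, and the surfactant genes SFTPB and SFTPC under 0.1 FPKM. Among the blood markers, PTPRC, CD3E and CD68 stayed under 0.2 FPKM while CD79A lay between 37.6 and 43.1 FPKM, and among the fibroblast markers COL1A1 lay between 5.74 and 8.23 FPKM with the other 3 under 1 FPKM. GFPT2 itself (ENSG00000131459) stood at 8.94, 7.58 and 8.72 FPKM in the siGFPT2 libraries, against 10.1, 9.30 and 8.28 FPKM in the siNC libraries. The groups overlapped, and the difference passed neither limma's test (log2 fold change -0.13, 95% interval -0.43 to 0.17, adjusted p = 0.9999) nor an exact two-sided permutation test (p = 0.4, where 0.1 is the smallest possible). The level of the target did not separate the labels, so siGFPT2 below means the libraries carrying that label.

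SREBPs act at the start regions of these genes together with NF-Y, a factor that binds the CCAAT box. RefSeq windows on GRCh38.p14 (250 bases before to 50 after a gene's start) were found for 35 of the 38 genes, and they were searched on both strands for CCAAT and for the sterol regulatory element spelled TCACNCCAC. CCAAT was present in a window of 26 of the 35 genes (74.3%), against 43.3% of the 9129 expressed genes with a window. A gene counted if any of its windows held a match, and the 35 genes had 53 windows. ACACB is among the 26 but not among the expressed genes. Without it, 25 genes had CCAAT in a window and 9 did not. The sterol element with these letters was present in 2 of the 35 (SREBF2 and ACSL1, 5.71%), against 1.48% of the expressed genes. The GC box GGGCGG was searched as well and was present in 33 of the 35 (94.3%), against 78.4% of the expressed genes. The windows of 4 genes are shown. They are the SREBP gene with the element, an SREBP inhibitor, the mevalonate gene with the smallest p and the most abundant desaturase. Of these windows only that of SREBF2 holds TCACNCCAC, and the marks in the others are CCAAT boxes. Capitals mark TCACNCCAC and CCAAT or its reverse, ATTGG, and each is written 5′ to 3′ on the strand of its gene.
SREBF2, chr22:41832855-41833154, plus strand: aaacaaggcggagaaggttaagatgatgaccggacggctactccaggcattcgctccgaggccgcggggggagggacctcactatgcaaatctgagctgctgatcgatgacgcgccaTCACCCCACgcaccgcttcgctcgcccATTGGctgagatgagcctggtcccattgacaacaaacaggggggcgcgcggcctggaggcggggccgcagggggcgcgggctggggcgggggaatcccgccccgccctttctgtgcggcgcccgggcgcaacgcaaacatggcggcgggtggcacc
INSIG1, chr7:155297628-155297927, plus strand: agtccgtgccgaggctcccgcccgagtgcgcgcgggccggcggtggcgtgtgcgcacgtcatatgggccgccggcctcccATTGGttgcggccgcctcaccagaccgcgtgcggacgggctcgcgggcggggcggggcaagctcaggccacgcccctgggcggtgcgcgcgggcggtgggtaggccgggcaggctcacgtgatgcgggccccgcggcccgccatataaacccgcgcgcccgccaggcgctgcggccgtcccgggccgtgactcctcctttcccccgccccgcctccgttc
HMGCS1, chr5:43313363-43313662, minus strand: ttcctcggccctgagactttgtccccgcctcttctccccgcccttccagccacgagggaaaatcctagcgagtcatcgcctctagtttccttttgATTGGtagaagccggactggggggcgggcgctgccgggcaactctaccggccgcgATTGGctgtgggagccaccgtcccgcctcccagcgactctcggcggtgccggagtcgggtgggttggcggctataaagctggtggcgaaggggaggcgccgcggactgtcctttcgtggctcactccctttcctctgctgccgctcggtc
SCD, chr10:100346983-100347282, plus strand: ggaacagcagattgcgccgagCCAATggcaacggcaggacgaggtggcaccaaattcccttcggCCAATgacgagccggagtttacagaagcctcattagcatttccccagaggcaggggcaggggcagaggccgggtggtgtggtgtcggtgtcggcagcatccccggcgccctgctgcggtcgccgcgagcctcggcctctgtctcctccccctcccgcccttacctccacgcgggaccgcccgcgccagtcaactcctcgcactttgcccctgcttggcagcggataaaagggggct
In the SREBF2 window the element begins at -133 and the CCAAT box at -106 relative to the start. HMGCS1 has 2 such windows, and the one with more matches is shown. A match is a run of letters and no proof of binding, and a window without one says nothing of the factor.

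All of these genes but ACACB were expressed at 1 FPKM or more on average, and they spanned a wide range of levels. By mean over the 6 libraries, SCD led with 242 FPKM and ranked 119 of the 12896 features tested, followed by FASN, ACLY and PMVK. ACACB was lowest at 0.553 FPKM and fell under the minimum of 1 FPKM for testing, which left 37 of the 38 genes in the comparison. Along the sterol route PMVK, NSDHL, FDFT1, FDPS and MVD stood above 20 FPKM, whereas MVK, CYP51A1, TM7SF2 and HSD17B7 stood under 6 FPKM. Some paralogs kept the order of their levels in each of the 6 libraries. In FPKM, ACACA exceeded ACACB 15.4-fold to 24.8-fold, INSIG1 exceeded INSIG2 7.54-fold to 12.4-fold, and SREBF1 exceeded SREBF2 1.25-fold to 1.82-fold. Other paralogs did not keep it. ACSL1 exceeded ACSL3 in siNC replicate 1 (9.12 and 8.16 FPKM) but not in siNC replicate 2 (9.56 and 10.3 FPKM). In a bulk sample, fewer cells expressing a gene and less of its RNA per cell cannot be told apart.

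**Figure D1:**
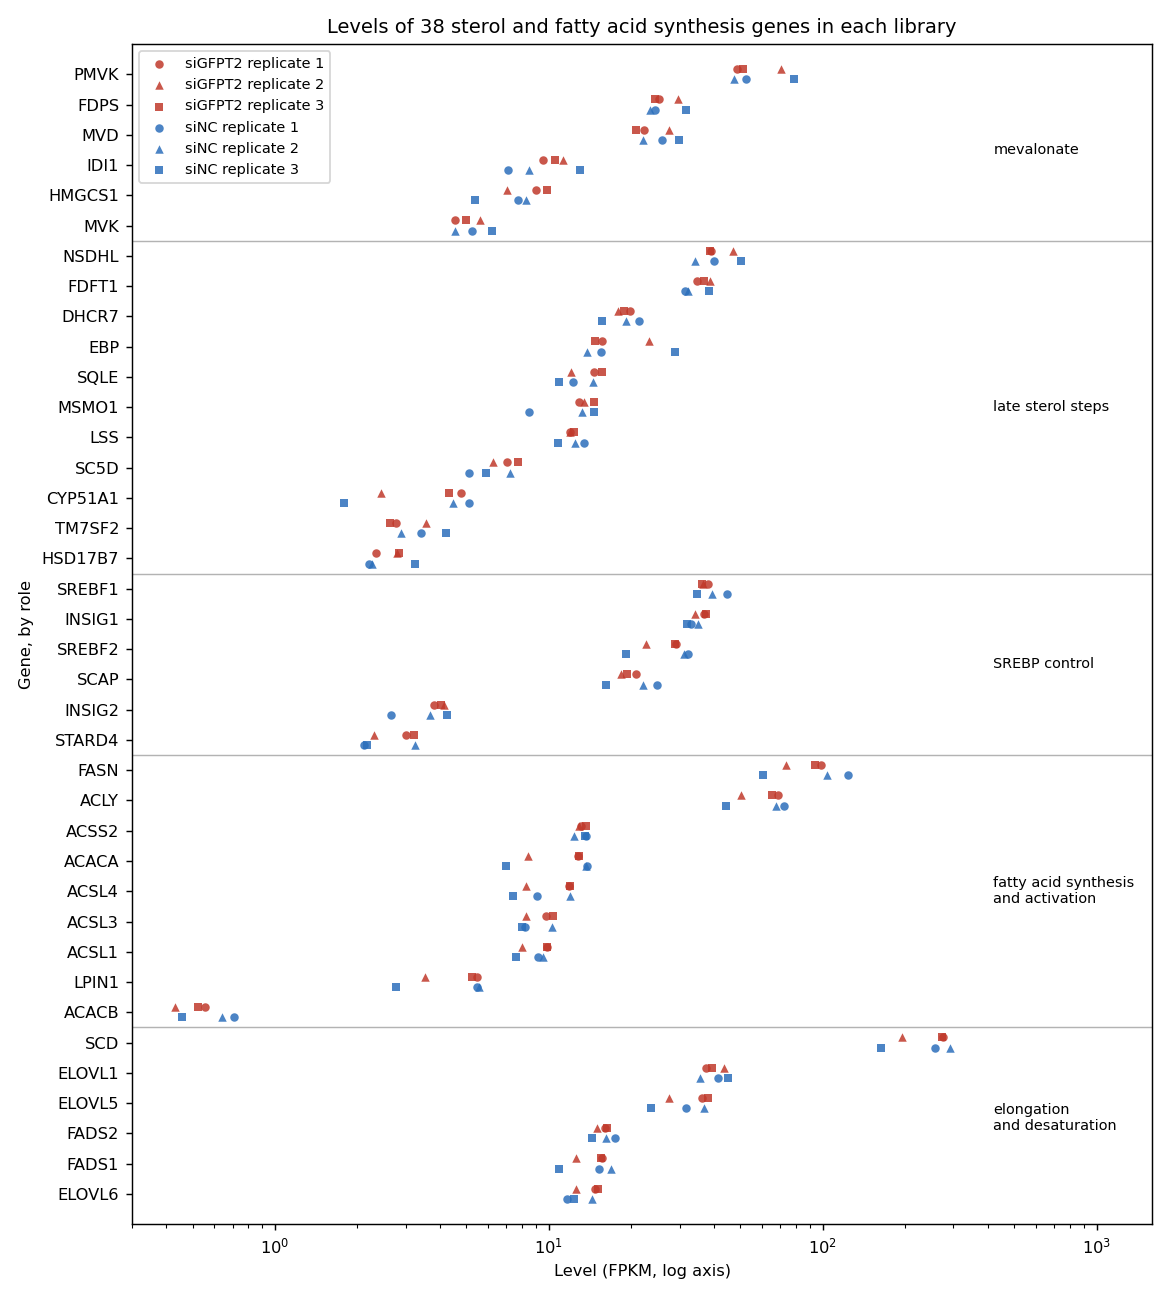
Level of each of the 38 genes (FPKM, log axis) in each library, grouped by role, with siGFPT2 libraries in red above siNC libraries in blue and symbols for the replicate number. SCD is the most abundant and ACACB the least, and the red and blue points of every gene overlap.

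No gene of sterol or fatty acid synthesis passed the test for a difference between siGFPT2 and siNC libraries. Of the 37 tested with limma on log2(FPKM + 0.1), 0 passed an adjusted p of 0.05, against 0 of 12896 features (0%). At an unadjusted p under 0.05 there were again 0 of 37, against 84 features (0.651%), and with limma-voom on recovered reads 0 of 37 as well. With so few of all features under that p in the main fit, 0 of 37 adds little. In fits given below the share of all features was 5.23% or 5.82%. The groups overlapped for all 37 genes. Over all features siGFPT2 lay wholly above siNC for 2.16% and wholly below for 1.36%. With shares this small, 0 of 37 without overlap adds little here as well. The log2 fold changes ran from -0.22 for TM7SF2 to 0.28 for HMGCS1, with 25 above 0 (67.6%) and 12 below and a median of 0.04. Over all features 61.4% lay above 0 and the median was 0.03, so a lean above 0 was common to the whole table. A 2-fold change, up or down, lay outside the 95% interval of 36 of the 37 genes (97.3%, against 92.8% of all features) and a 1.5-fold change outside that of 22 (59.5%, against 61.1%). CYP51A1 was the exception to the first count, with an interval from 0.526-fold to 2.19-fold.

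**Figure D2:**
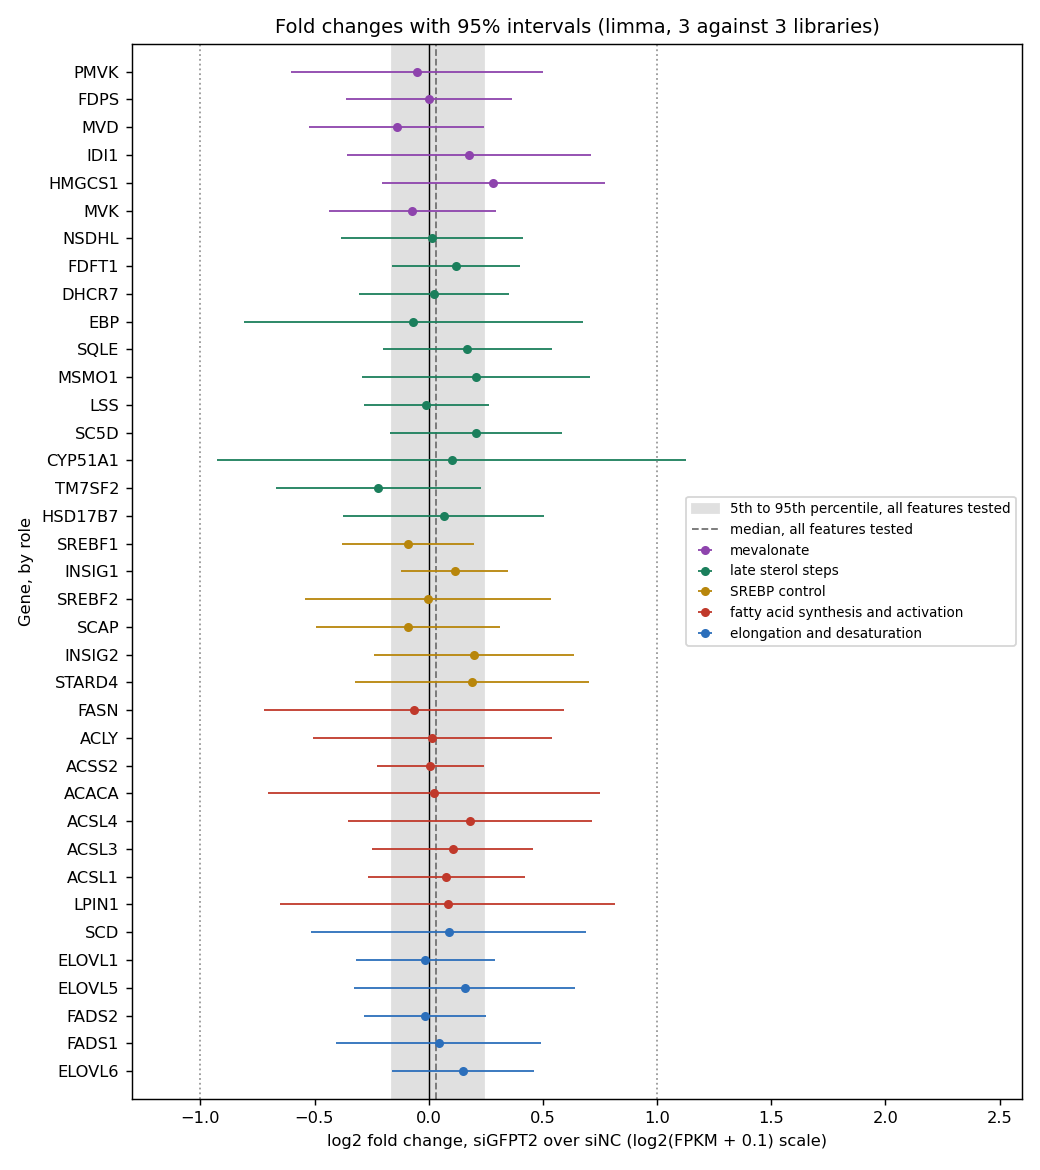
Log2 fold change of siGFPT2 over siNC with its 95% interval (limma, 3 libraries each) for 37 genes, coloured by role; the grey band holds the 5th to 95th percentile of all features tested, the dashed line their median of 0.03, and dotted lines mark 2-fold changes. Every interval includes 0, and the interval of CYP51A1 alone crosses a dotted line.

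The mevalonate steps turn acetyl-CoA units into the isoprenoid precursors of sterols, and 3 of their 6 genes had fold changes above 0 and 3 below (median -0.02). HMGCS1 (ENSG00000112972, chromosome 5, 43289395 to 43313512, minus strand, GENCODE 29 on GRCh38) is an early synthase of the pathway. It stood at 8.99, 7.06 and 9.82 FPKM in siGFPT2 libraries, against 7.74, 8.26 and 5.37 FPKM in siNC libraries. Its lowest values were in siGFPT2 replicate 2 and siNC replicate 3, and the groups overlapped (log2 fold change 0.28 ± 0.20 SE, 95% interval -0.20 to 0.77, limma unadjusted p = 0.211). PMVK, the kinase that adds the second phosphate to mevalonate, had 48.8, 70.6 and 51.0 FPKM in siGFPT2 libraries, against 52.5, 47.5 and 78.4 FPKM in siNC libraries. Here the same replicates, siGFPT2 replicate 2 and siNC replicate 3, were the highest (log2 fold change -0.05, -0.60 to 0.50). MVD, the decarboxylase that yields isopentenyl diphosphate, had 22.2, 27.6 and 20.7 FPKM in siGFPT2 libraries and 25.8, 22.1 and 29.8 FPKM in siNC libraries, and again these replicates were highest in their groups (-0.14, -0.52 to 0.24). FDPS, which joins isoprenoid units into farnesyl diphosphate, had 25.3, 29.6 and 24.3 FPKM in siGFPT2 libraries and 24.4, 23.4 and 31.7 FPKM in siNC libraries (0.00, -0.36 to 0.37). It has 8 named pseudogenes, none above 0.503 FPKM, so a few of its reads may be shared. MVK, the first kinase, averaged 5.04 ± 0.519 FPKM in siGFPT2 and 5.33 ± 0.843 FPKM in siNC libraries (SD, n = 3 each), and its exons overlap those of the antisense gene MMAB. IDI1, the isomerase, held 9.503, 11.2 and 10.5 FPKM in siGFPT2 libraries, against 7.06, 8.49 and 13.0 FPKM in siNC libraries. Only siNC replicate 3 lay above the siGFPT2 values of IDI1; without that library its log2 fold change was 0.42 (limma unadjusted p = 0.0171, adjusted p = 0.81), in a fit where 4.03% of all features had an unadjusted p under 0.05. Without siNC replicate 1 it was -0.01 (limma unadjusted p = 0.955).

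The late sterol steps convert farnesyl diphosphate through squalene and lanosterol to cholesterol, and 8 of their 11 genes had fold changes above 0 and 3 below (median 0.07). NSDHL, which removes a methyl group at carbon 4 of the sterol ring, led this role with 39.2, 47.1 and 38.7 FPKM in siGFPT2 libraries, against 40.05, 34.2 and 50.3 FPKM in siNC libraries. FDFT1, the squalene synthase at the branch point, had 34.7, 38.8 and 36.8 FPKM in siGFPT2 libraries, against 31.4, 32.2 and 38.3 FPKM in siNC libraries. For both genes the highest value of each group was in siGFPT2 replicate 2 or siNC replicate 3, and the fold changes were small (0.02, -0.38 to 0.41 for NSDHL; 0.12, -0.16 to 0.40 for FDFT1). SC5D, a sterol desaturase, had 7.01, 6.27 and 7.69 FPKM in siGFPT2 libraries and 5.12, 7.21 and 5.92 FPKM in siNC libraries, and overlapped through siNC replicate 2 (0.21, -0.17 to 0.58, unadjusted p = 0.233). TM7SF2, a sterol reductase, had 2.76, 3.56 and 2.63 FPKM in siGFPT2 libraries and 3.42, 2.88 and 4.22 FPKM in siNC libraries (-0.22, -0.67 to 0.23). Its exons overlap those of VPS51 on the same strand, so its count is uncertain. CYP51A1, the lanosterol demethylase, varied most of all 38 genes, with 4.78, 2.45 and 4.31 FPKM in siGFPT2 libraries, against 5.10, 4.45 and 1.78 FPKM in siNC libraries. It was lowest in siGFPT2 replicate 2 and siNC replicate 3 (coefficient of variation 35.7% over the 6 libraries). Its count is also uncertain, since other protein-coding genes of GENCODE 29 overlap it on the same strand. CYP51A1 has 3 named pseudogenes as well, which reached up to 0.701 FPKM. SQLE, the squalene epoxidase and a rate-limiting step, averaged 14.1 ± 1.89 FPKM in siGFPT2 and 12.5 ± 1.80 FPKM in siNC libraries (0.17, -0.20 to 0.54). LSS, the cyclase that forms lanosterol, was among the steadiest, at 12.1 ± 0.212 FPKM in siGFPT2 and 12.2 ± 1.34 FPKM in siNC libraries (-0.01, -0.29 to 0.27). The isomerase EBP averaged 17.9 ± 4.64 FPKM in siGFPT2 and 19.4 ± 8.28 FPKM in siNC libraries, its 28.9 FPKM in siNC replicate 3 standing above all others. The methyl oxidase MSMO1 averaged 13.6 ± 0.887 FPKM in siGFPT2 and 12.1 ± 3.23 FPKM in siNC libraries, with siNC replicate 1 low at 8.46 FPKM. DHCR7, the reductase that ends one branch, averaged 18.8 ± 0.969 FPKM in siGFPT2 and 18.6 ± 2.85 FPKM in siNC libraries. HSD17B7, a sterol ketone reductase with 2 named pseudogenes that reached up to 0.991 FPKM, averaged 2.66 ± 0.271 FPKM in siGFPT2 and 2.57 ± 0.579 FPKM in siNC libraries.

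The genes of SREBP control, which sense sterols and switch the pathway, had 3 fold changes above 0 and 3 below (median 0.06). SREBF1, whose product acts mainly on fatty acid genes, stood at 38.2, 36.7 and 36.3 FPKM in siGFPT2 libraries, against 44.7, 39.5 and 34.8 FPKM in siNC libraries. The siGFPT2 values lay inside the siNC range (-0.09, -0.38 to 0.20). Exons of SREBF1 overlap those of RAI1 on the opposite strand. SREBF2, which acts mainly on sterol genes, stood at 29.2, 22.6 and 28.9 FPKM in siGFPT2 libraries, against 32.3, 31.1 and 19.1 FPKM in siNC libraries, lowest in siGFPT2 replicate 2 and siNC replicate 3 (-0.00, -0.54 to 0.54). INSIG1, an SREBP target as well as an inhibitor, was steady at 36.8, 34.1 and 37.3 FPKM in siGFPT2 libraries and 33.0, 34.9 and 32.0 FPKM in siNC libraries. The groups overlapped through siGFPT2 replicate 2 and siNC replicate 2 (0.11, -0.12 to 0.35, unadjusted p = 0.288), and the interval of INSIG1 excluded a change above 1.27-fold or below 0.92-fold. Its paralog INSIG2 had 3.82, 4.14 and 4.04 FPKM in siGFPT2 libraries and 2.66, 3.69 and 4.25 FPKM in siNC libraries (0.20, -0.24 to 0.64). SCAP, the escort of SREBP, averaged 19.4 ± 1.24 FPKM in siGFPT2 and 21.0 ± 4.34 FPKM in siNC libraries (-0.09, -0.49 to 0.31). STARD4, a sterol carrier in the cytosol, had 3.02, 2.31 and 3.23 FPKM in siGFPT2 libraries and 2.12, 3.25 and 2.17 FPKM in siNC libraries. Its siGFPT2 values lay inside the siNC range (0.19, -0.32 to 0.70).

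Fatty acid synthesis starts with acetyl-CoA made by ACLY or ACSS2, which ACACA carboxylates and FASN extends, and acyl-CoA synthetases then activate the product. Of the 8 tested genes, 7 had fold changes above 0 and 1 below (median 0.05). FASN (ENSG00000169710; chromosome 17, 82078333 to 82098332, minus strand) had 98.6, 73.2 and 93.7 FPKM in siGFPT2 libraries, against 123, 104 and 60.3 FPKM in siNC libraries. siNC alone spanned more than the whole range of siGFPT2, with siNC replicate 3 lowest and siNC replicate 1 highest (-0.06, -0.72 to 0.59). ACLY, the citrate lyase, had 68.6, 50.2 and 65.3 FPKM in siGFPT2 libraries and 72.4, 67.5 and 44.5 FPKM in siNC libraries (0.02, -0.51 to 0.54). ACACA, the carboxylase that commits carbon to fatty acids, averaged 11.4 ± 2.55 FPKM in siGFPT2 and 11.5 ± 3.90 FPKM in siNC libraries. Its values of 8.42 FPKM in siGFPT2 replicate 2 and 7.001 FPKM in siNC replicate 3 stood apart from the other 4, which lay between 12.8 and 13.8 FPKM. Its paralog ACACB, tied to control of fatty acid oxidation, had 0.555, 0.433 and 0.522 FPKM in siGFPT2 libraries, against 0.708, 0.642 and 0.456 FPKM in siNC libraries, from 162 to 227 fragments. ACSS2, which makes acetyl-CoA from acetate, varied least of the 38 genes, at 13.3 ± 0.399 FPKM in siGFPT2 and 13.2 ± 0.704 FPKM in siNC libraries (0.01, -0.23 to 0.24).

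Among the genes that activate fatty acids, ACSL4, which prefers arachidonate, had 11.9, 8.24 and 12.0 FPKM in siGFPT2 libraries and 9.04, 12.0 and 7.39 FPKM in siNC libraries (0.18, -0.35 to 0.71, unadjusted p = 0.446). Exons of ACSL4 overlap those of KCNE5 on the same strand, so its count is uncertain. ACSL3, of lipid droplets, had 9.75, 8.26 and 10.3 FPKM in siGFPT2 libraries and 8.16, 10.3 and 7.97 FPKM in siNC libraries (0.11, -0.25 to 0.46). In both, 1 siNC library matched the high siGFPT2 libraries. ACSL1 averaged 9.23 ± 1.10 FPKM in siGFPT2 and 8.75 ± 1.05 FPKM in siNC libraries (0.08, -0.27 to 0.42). LPIN1, a phosphatidate phosphatase of glycerolipid synthesis, had 5.46, 3.52 and 5.25 FPKM in siGFPT2 libraries and 5.48, 5.56 and 2.77 FPKM in siNC libraries, lowest in siGFPT2 replicate 2 and siNC replicate 3 (0.08, -0.65 to 0.82).

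Elongases and desaturases shape the chain that FASN releases, and 4 of these 6 genes had fold changes above 0 and 2 below (median 0.07). SCD (ENSG00000099194; chromosome 10, 100347124 to 100364834, plus strand), which makes oleate from stearate, had 276, 194 and 273 FPKM in siGFPT2 libraries, against 257, 291 and 163 FPKM in siNC libraries. The lowest value of each group was again in siGFPT2 replicate 2 or siNC replicate 3, and the groups overlapped (0.09, -0.52 to 0.69). ELOVL1, the elongase of very long saturated chains, had 37.6, 43.6 and 39.5 FPKM in siGFPT2 libraries and 41.5, 35.5 and 45.2 FPKM in siNC libraries (-0.01, -0.32 to 0.29). ELOVL5, which extends polyunsaturated chains, had 36.3, 27.4 and 38.1 FPKM in siGFPT2 libraries and 31.6, 36.7 and 23.5 FPKM in siNC libraries (0.16, -0.33 to 0.64). ELOVL6, which turns palmitate into stearate, had 14.8, 12.5 and 15.1 FPKM in siGFPT2 libraries and 11.6, 14.3 and 12.3 FPKM in siNC libraries. The siNC replicate 2 value of ELOVL6 lay among the siGFPT2 values (0.15, -0.16 to 0.46, unadjusted p = 0.291). FADS1 and FADS2, neighbouring desaturases of polyunsaturated fatty acids on chromosome 11, had log2 fold changes of 0.04 (-0.40 to 0.49) and -0.02 (-0.28 to 0.25). Their exons overlap each other on opposite strands, and whether the counting used strand is not given in the sources used here. Exons of FADS2 also overlap those of FEN1 on the same strand, so the levels of FADS1 and FADS2 are uncertain.

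A deviation shared by siGFPT2 replicate 2 and siNC replicate 3, libraries with different labels, ran through many of these genes. These libraries were both the lowest of the 6 for 17 of the 37 genes (45.9%, against 35.4% of all features) and both the highest for 11 (29.7%, against 29.8%). The lowest set held HMGCS1, SQLE, LSS, CYP51A1, DHCR7, SREBF2, SCAP and 10 fatty acid genes with ACLY, ACACA, FASN and SCD among them. The highest set held 5 of the 6 mevalonate genes (MVK, PMVK, MVD, IDI1 and FDPS), with FDFT1, TM7SF2, NSDHL, EBP, INSIG2 and ELOVL1. As medians of the deviation from the 6-library mean on the log2 scale, the fatty acid synthesis and activation genes stood at -0.26 in siGFPT2 replicate 2 and -0.43 in siNC replicate 3, and between 0.15 and 0.19 in the other 4. The mevalonate genes ran the other way, at 0.17 and 0.28 in the same libraries and between -0.17 and -0.05 in the others. All features tested had medians between -0.04 and 0.05 in every library. These pool the 35.4% that were lowest in both libraries with the 29.8% that were highest. A median near 0 therefore does not make the deviation particular to these genes.

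**Figure D3:**
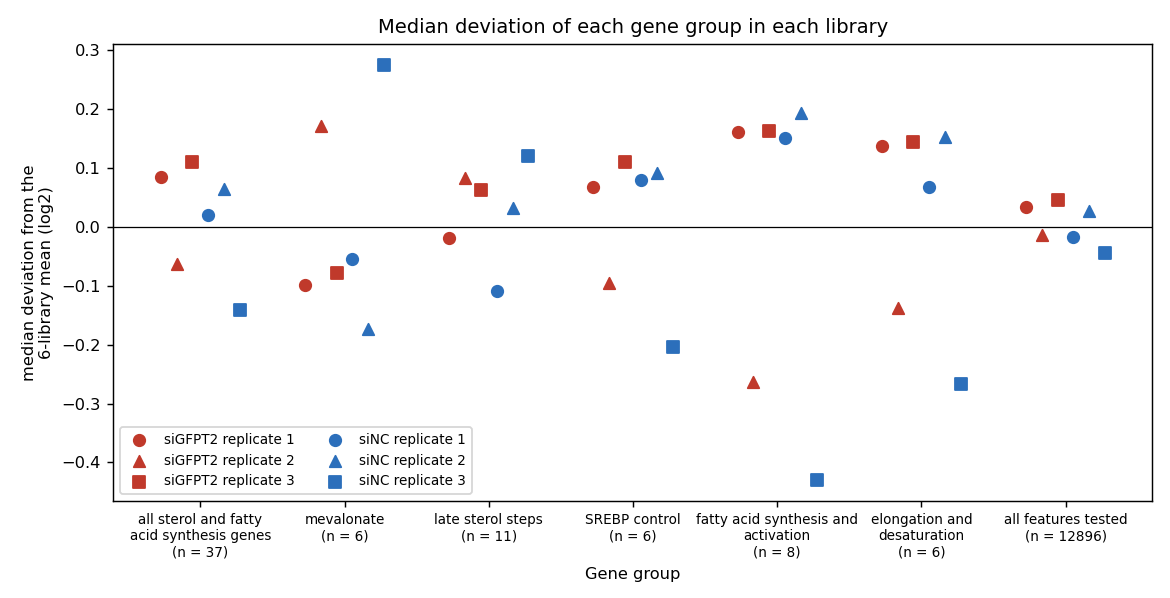
Median deviation of each gene group from its 6-library mean (log2 FPKM + 0.1 scale) in each library, siGFPT2 in red left of siNC in blue, with symbols for the replicate number. In the fatty acid group siGFPT2 replicate 2 (-0.26) and siNC replicate 3 (-0.43) lie far below the other 4, and in the mevalonate group they lie highest.

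The length of the mRNA moved with this deviation. The genes that were lowest in both libraries had mRNAs of 2666 to 9961 nt (longest protein-coding transcript in GENCODE 29), and those that were highest had mRNAs of 1280 to 3370 nt. Across the 37 genes the deviation in siGFPT2 replicate 2 had a Pearson correlation of -0.77 with log2 mRNA length and the deviation in siNC replicate 3 one of -0.75, where it was between 0.41 and 0.78 in the other 4 libraries. The points of 1 library share its depth and handling, and the deviations of a gene sum to 0 over the libraries, so these values describe the libraries and carry no test. The same relation over 12567 features was -0.38 in both libraries. The 19 genes with mRNAs of at least 3210 nt had a median deviation of -0.18 in siGFPT2 replicate 2 and -0.39 in siNC replicate 3, while the 18 genes with mRNAs of at most 3081 nt had 0.11 and 0.19. The slope of each library on length was then taken as a covariate. In log2 per doubling of length it was 0.042, -0.081 and 0.040 in the siGFPT2 libraries. In the siNC libraries it was 0.049, 0.071 and -0.12. The slopes nearly balanced between the groups, so this covariate could change the spread but hardly the fold changes. The median of the 37 genes, 0.04 in that fit, therefore says nothing of the part of length.

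**Figure D4:**
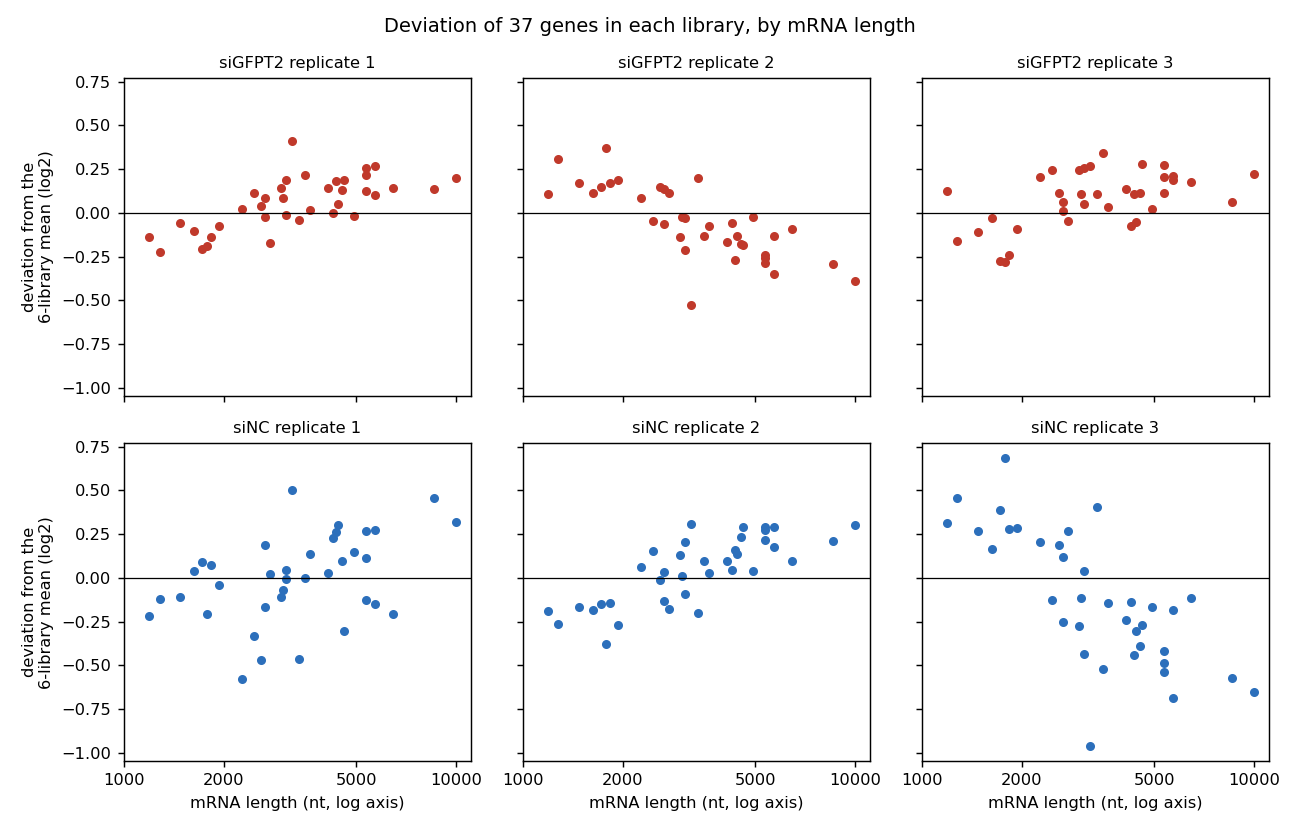
Deviation of each of 37 genes from its 6-library mean (log2 scale) against mRNA length (nt, log axis), 1 panel per library, siGFPT2 above siNC. The points fall with length in siGFPT2 replicate 2 and siNC replicate 3 (Pearson correlation -0.77 and -0.75) and rise with it in the other 4 libraries.

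With that covariate, 0 of the 37 genes passed the adjusted threshold and 4 had an unadjusted p under 0.05 in limma, in a fit where 674 of 12896 features (5.23%) did. HMGCS1 had a log2 fold change of 0.28 ± 0.06 (SE; unadjusted p = 0.00283, adjusted p = 0.712), ELOVL5 0.15 ± 0.06, FDFT1 0.12 ± 0.05 and TM7SF2 -0.22 ± 0.08. Without siNC replicate 3 and siGFPT2 replicate 2, 0 passed and 3 had an unadjusted p under 0.05 (IDI1 0.37, HMGCS1 0.23 and SCAP -0.22), against 751 features (5.82%).

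Neighbouring lipid genes were read out from the same fit, from a list of 58 that use isoprenoids, cleave SREBP or degrade INSIG, move and store cholesterol, supply and extend acyl chains, or make glycerolipids and burn fatty acids. Of these 53 were tested, 0 passed the adjusted threshold, 0 had an unadjusted p under 0.05, and 36 fold changes lay above 0 (67.9%) and 17 below (median 0.06). At an unadjusted p under 0.05 there were 2 of them with the length slope as a covariate, 2 without siNC replicate 3 and 3 once siGFPT2 replicate 2 was left out as well, with the shares of all features given above for these fits. The groups did not overlap for 3, with siGFPT2 higher in each, and the background for that count is the 2.16% given above. LIPA, the lysosomal lipase that frees cholesterol from its esters, had 18.1, 17.4 and 19.7 FPKM in siGFPT2 libraries, against 12.9, 16.5 and 16.2 FPKM in siNC libraries. Its log2 fold change was 0.28 (-0.03 to 0.59; limma unadjusted p = 0.0732, adjusted p = 0.9999). RNF139, a ubiquitin ligase of the endoplasmic reticulum that binds INSIG1, had 6.30, 5.9995 and 6.66 FPKM in siGFPT2 libraries, against 5.29, 5.75 and 5.42 FPKM in siNC libraries (0.20, -0.05 to 0.45). ACSL5, a synthetase named after its values were seen, had 8.04, 8.27 and 8.47 FPKM in siGFPT2 libraries, against 7.33, 7.98 and 7.91 FPKM in siNC libraries (0.09, -0.14 to 0.33). On the opposite strand, exons of LIPA overlap those of IFIT2 and exons of ACSL5 those of ZDHHC6. Since the use of strand in counting is not given, the levels of both are uncertain. Such overlaps are not all listed here.

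In the isoprenoid branch, PDSS2, which makes the tail of coenzyme Q, averaged 4.08 ± 0.657 FPKM in siGFPT2 and 3.31 ± 0.435 FPKM in siNC libraries (0.29, -0.11 to 0.68), and PGGT1B, a prenyltransferase subunit, had 0.22. NUS1 and DHDDS, the pair that makes dolichol for N-glycan assembly, had 0.13 (-0.27 to 0.53) and 0.00 (-0.27 to 0.28). NUS1 averaged 6.31 FPKM in siGFPT2 and 5.79 FPKM in siNC libraries. Its 4 named pseudogenes reached up to 2.30 FPKM, so some of its reads may be shared and its level is uncertain. MBTPS1, the first protease to cut SREBP, averaged 17.1 ± 1.63 FPKM in siGFPT2 and 17.6 ± 2.77 FPKM in siNC libraries (-0.03), and ERLIN1, a membrane protein of the endoplasmic reticulum, had 0.12. The lysosomal cholesterol carriers NPC2 and NPC1 averaged 127 ± 14.5 and 20.2 ± 4.09 FPKM in siGFPT2 libraries, against 133 ± 15.4 and 19.4 ± 5.42 FPKM in siNC libraries. STARD3NL, a tether of late endosomes, had 0.10. The citrate carrier SLC25A1 averaged 78.2 ± 10.6 FPKM in siGFPT2 and 82.0 ± 13.3 FPKM in siNC libraries (-0.06), and MID1IP1, an activator of acetyl-CoA carboxylase, had -0.02 (-0.25 to 0.20). OXSM, of mitochondrial fatty acid synthesis, had 0.17 and the elongase ELOVL7 0.21. Of the fatty acid oxidation genes, ACADVL averaged 110 ± 8.02 FPKM in siGFPT2 and 115 ± 12.3 FPKM in siNC libraries (-0.05), HADHA had 0.09 and CPT2 0.14. ABCG1, ELOVL2, ELOVL4, ACSL6 and DGAT2 were under 1 FPKM and were not tested.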

How the data were processed

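Bulk mRNA sequencing of 6 NCI-H1975 libraries was deposited by the authors as 1 table of FPKM values. Per the submitters' processing notes the authors used HISAT2, featureCounts and DESeq2; no source used here gives a version, genome build or annotation. Per the labels' protocols, mRNA was taken on oligo(dT) beads; that text also mentions other treatments (almonertinib, EGF, a knockdown of EGFR) absent from the treatment labels. Columns were tied to samples by name and grouped by the treatment label.

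Symbols came from a table of gene names, and coordinates and lengths from GENCODE 29 (GRCh38). Whole reads were recovered for 36979 of 36981 features above 0 (tolerance 0.001 reads); GENCODE lengths sufficed for 20039, and otherwise the smallest length giving whole reads was taken, so reads can be understated.

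The main test was limma 3.58.1 (R 4.3.3) on log2(FPKM + 0.1), with eBayes and a mean-variance trend, group as the only term, two-sided, on the 12896 features averaging 1 FPKM or more. P-values were adjusted by Benjamini-Hochberg over all features. Fold changes on this scale understate the change of low genes. The model was tested on simulated data. All 38 genes and the lists were chosen with earlier results of these data known. Values in every library were given for the 2 most abundant, the 2 of smallest p and the most variable gene of each role, and for SREBF1, SREBF2, INSIG1 and INSIG2; others so shown were chosen after their values were seen. Of the other lipid genes, the 2 most abundant and the 2 of smallest p of each group were named, except that 1 is not reported here. There were 17 alternative fits.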

Additional observations from a re-analysis of the deposited data

How the results depend on the processing

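Over 17 alternative fits, 0 sterol or fatty acid genes and 0 of all features passed the adjusted threshold (37 of these genes tested, but 38 with no minimum mean and 31 with a minimum of 5 FPKM); the smallest adjusted p of a sterol or fatty acid gene was 0.712, with the length slope as a covariate. Features at an unadjusted p under 0.05 ranged from 16 of 6781 with a minimum mean of 5 FPKM to 754 of 36981 with no minimum. In the main fit there were 84 of 12896. As a share the largest was 751 of 12896 (5.82%), without siNC replicate 3 and siGFPT2 replicate 2. Some of these fits could not turn the sign of a fold change. Dropping the mean-variance trend, blocking on the replicate number or changing the minimum mean left each fold change as in the main fit. The length slope, nearly balanced between the groups, hardly moved it. For 12 of the 37 genes the sign held in every fit that tested them (INSIG2, STARD4 and TM7SF2 were under the 5 FPKM minimum), but single libraries moved the size: with 1 left out the log2 fold change ran from 0.039 to 0.22 for ACSL3, from 0.018 to 0.36 for ACSL4, from 0.085 to 0.24 for ELOVL6, from 0.066 to 0.21 for FDFT1, from 0.094 to 0.42 for HMGCS1, from 0.085 to 0.15 for INSIG1, from 0.014 to 0.34 for INSIG2, from -0.26 to -0.034 for MVD, from 0.092 to 0.33 for SC5D, from 0.074 to 0.28 for SQLE, from 0.085 to 0.38 for STARD4 and from -0.35 to -0.084 for TM7SF2. The other signs, all of uncalled fold changes, turned as follows; the cause was not tested. With each library centred on its median the log2 fold changes were -0.050 for FDPS, -0.037 for NSDHL, -0.031 for DHCR7, -0.036 for ACLY, -0.046 for ACSS2, -0.031 for ACACA and -0.0094 for FADS1. With quantile normalization they were -0.011 for ACSS2 and -0.017 for ACACA. With limma-voom on recovered reads they were -0.021 for FDPS, -0.0076 for NSDHL, -0.0022 for DHCR7, -0.0076 for ACLY, -0.017 for ACSS2 and -0.0019 for ACACA. Without both siNC replicate 3 and siGFPT2 replicate 2, MSMO1 reached 0.37 and ACSS2 0.046, and the turned values were -0.068 for CYP51A1, 0.057 for EBP, -0.063 for DHCR7, -0.063 for ACLY, -0.10 for ACACA, -0.044 for LPIN1, 0.0033 for ELOVL1 and -0.040 for FADS1. With 1 library left out at a time, the log2 fold change ran from -0.18 to 0.044 for MVK, from -0.22 to 0.17 for PMVK, from -0.012 to 0.42 for IDI1, from -0.082 to 0.14 for FDPS, from -0.10 to 0.060 for LSS, from -0.36 to 0.39 for CYP51A1, from -0.031 to 0.36 for MSMO1, from -0.11 to 0.16 for NSDHL, from -0.027 to 0.24 for HSD17B7, from -0.27 to 0.26 for EBP, from -0.10 to 0.12 for DHCR7, from -0.18 to 8.3e-05 for SREBF1, from -0.25 to 0.13 for SREBF2, from -0.26 to 0.038 for SCAP, from -0.20 to 0.15 for ACLY, from -0.038 to 0.030 for ACSS2, from -0.30 to 0.22 for ACACA, from -0.37 to 0.15 for FASN, from -0.024 to 0.18 for ACSL1, from -0.24 to 0.28 for LPIN1, from -0.16 to 0.26 for SCD, from -0.11 to 0.064 for ELOVL1, from -0.021 to 0.30 for ELOVL5, from -0.14 to 0.17 for FADS1 and from -0.092 to 0.048 for FADS2. With 1 library left out, role medians ran from -0.13 to 0.12 for the mevalonate genes, from 0.043 to 0.16 for the late sterol steps, from -0.048 to 0.14 for SREBP control, from -0.11 to 0.19 for fatty acid synthesis and activation and from -0.056 to 0.20 for elongation and desaturation. The median of all 37 ran from 0.018 to 0.12, and was -0.0094 with median centring. The replicate numbers share only a number: deviations of same-numbered libraries correlated at 0.47, -0.72 and -0.57, and not every library correlated best with its own number. With the replicate number as a block 0 of the 37 genes and 0 features passed, with 63 features at an unadjusted p under 0.05. Depth limits the genes with few fragments most. ACACB rested on 162 to 227 fragments and CYP51A1 on 154 to 398.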
